A study of Homo sapiens with 4 samples.

Results

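The genes described here lie near one another on the long arm of chromosome 7, from VKORC1L1 in band q11 to PHTF2, and include the stretch that is lost in Williams-Beuren syndrome. The list holds 40 genes, chosen by their place on the chromosome with earlier results of the same arrays in view. Of these, 38 had a probe set whose platform annotation names that gene alone, out of 19775 such genes on the array. KCTD7 and SBDS had only probe sets that also name a neighbour or a pseudogene, and have no value here. Each gene was read from its brightest probe set, and the clones were compared after quantile normalization, a scaling that gives all arrays the same distribution of values. The choice of the genes rested on this same comparison, so the values below are a description, and no p-value is given for a listed gene.

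RNA came from Raji, an established Burkitt lymphoma cell line, and was hybridised to 4 Affymetrix HG-U133 Plus 2.0 arrays. The 2 arrays of the DLEU1-downregulated group came from a clone in which TALENs, designer nucleases, had lowered DLEU1, which lies on chromosome 13 and makes a long non-coding RNA. The 2 control arrays came from a clone that the design text calls wild type, although the treatment label of all 4 samples names the TALENs. Both clones were kept in RPMI medium with serum. Each group is 1 clone, and nothing in the labels says whether its 2 arrays came from separate cultures, so the error values measure only the spread between arrays, which may be technical.

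Williams-Beuren syndrome arises when the block from about NSUN5 to GTF2I is deleted from 1 copy of the chromosome, through recombination between duplicated sequences that flank it. Those duplicated flanks hold near-identical copies of POM121, NSUN5, NCF1, GTF2I and PMS2-like genes, and array probes for such genes can read more than one copy. The listed genes share no pathway. They code for chromatin and RNA-modifying proteins, mitochondrial and lysosomal enzymes, adaptors of immune receptors and parts of the membrane traffic machinery. The interval also holds several pairs of genes that start close together and run in opposite directions.

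The start regions of 3 such pairs, and that of ABHD11, which had the highest difference of the list after quantile normalization, are shown because the results on position refer to them. The sequences are from RefSeq on GRCh38.p14 and run 5′ to 3′, from 250 bases before the start of the named gene to 50 after it. In the first 3, the capitals mark the stretch from the start of the opposite gene to the start of the named gene. BUD23 shares its window with DNAJC30 (chr7:73683347-73683646, plus strand), MDH2 with STYXL1 (chr7:76047856-76048155, plus strand) and RSBN1L with APTR (chr7:77696209-77696508, plus strand). In the last, that of ABHD11 (chr7:73738753-73739052, minus strand), the capitals mark the GC box GGGCGG, which occurs 8 times.
BUD23 and DNAJC30: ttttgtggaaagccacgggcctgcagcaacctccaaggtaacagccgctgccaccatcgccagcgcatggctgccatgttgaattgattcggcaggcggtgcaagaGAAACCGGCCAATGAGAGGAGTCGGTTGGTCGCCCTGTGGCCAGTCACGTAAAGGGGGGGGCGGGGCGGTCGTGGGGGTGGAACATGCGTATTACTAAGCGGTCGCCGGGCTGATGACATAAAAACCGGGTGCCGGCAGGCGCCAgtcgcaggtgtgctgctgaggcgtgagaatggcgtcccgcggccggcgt
MDH2 and STYXL1: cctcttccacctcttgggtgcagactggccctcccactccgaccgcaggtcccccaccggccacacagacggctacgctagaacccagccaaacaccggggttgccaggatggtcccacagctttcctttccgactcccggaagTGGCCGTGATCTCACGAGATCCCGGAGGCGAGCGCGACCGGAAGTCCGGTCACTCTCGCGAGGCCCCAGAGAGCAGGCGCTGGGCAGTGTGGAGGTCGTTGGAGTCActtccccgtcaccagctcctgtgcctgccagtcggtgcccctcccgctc
RSBN1L and APTR: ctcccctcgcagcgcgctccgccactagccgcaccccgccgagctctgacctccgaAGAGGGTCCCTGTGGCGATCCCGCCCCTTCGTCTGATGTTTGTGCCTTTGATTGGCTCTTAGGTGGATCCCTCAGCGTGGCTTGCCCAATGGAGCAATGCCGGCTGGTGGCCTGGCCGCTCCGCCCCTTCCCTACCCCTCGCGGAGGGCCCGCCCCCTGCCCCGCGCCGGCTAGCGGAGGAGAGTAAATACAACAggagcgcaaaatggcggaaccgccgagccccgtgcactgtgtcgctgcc
ABHD11: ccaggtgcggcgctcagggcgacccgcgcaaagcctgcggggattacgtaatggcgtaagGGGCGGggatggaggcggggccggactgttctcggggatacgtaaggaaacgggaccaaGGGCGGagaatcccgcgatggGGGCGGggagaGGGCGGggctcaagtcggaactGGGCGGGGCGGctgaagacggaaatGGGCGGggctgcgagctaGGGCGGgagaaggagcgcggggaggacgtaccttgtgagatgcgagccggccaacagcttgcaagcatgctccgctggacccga

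The targeted gene and the identity of the cells were examined first. As quantile-normalised intensity, DLEU1 was at 1385 and 1286 in the control clone against 498.9 and 507.4, a log2 difference of -1.38 ± 0.07 (SE, limma adjusted p = 2.9e-06). The summed intensity of 6 B-cell markers was 16360 and 16400 in the control clone against 14030 and 14150. After quantile normalization limma called 4 of the 6 lower, beside 20.6% of all genes tested. In bulk RNA, fewer cells of a type and less RNA per cell cannot be told apart. The summed markers of T cells, myeloid cells and epithelial cells stayed between 38.12 and 70.22 on every array. The 4 fibroblast markers summed to 168.3 and 218.9 in the control clone against 151.2 and 99.21, and limma called 1 of the 3 tested lower. The part of these markers in the results was not tested. As deposited, before scaling, the arrays differed in brightness, with trimmed mean intensities of 131.4 to 163.4 in the control and 171.9 to 196.8 in the DLEU1-downregulated clone.

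Most of the 7q11 genes were brighter in the DLEU1-downregulated clone. Of the 38 measured genes, 36 were bright enough to be tested, and 22 were called higher and 2 lower (limma, Benjamini-Hochberg adjusted p under 0.05), while 12 were not called. Among all 13292 genes tested, 20.6% were called higher and 20.6% lower. The median log2 difference of the 36 genes was 0.65, from -0.43 to 1.63, against -0.01 over all genes. Both DLEU1-downregulated arrays lay above both control arrays for 30 of the 36 and below them for 2, whereas 34.0% of all genes tested lay above and 35.9% below. The median gap between the 2 control arrays was 0.19 and between the 2 DLEU1-downregulated arrays 0.09, on the log2 scale. A difference of at least 1, or 2-fold, was seen for 6 of the genes, ABHD11, LAT2, LIMK1, BUD23, STX1A and VKORC1L1, and for 2.66% of all genes tested. That count was 16 as deposited (6.41% of all genes), 17 after median centring (7.47%), 13 with a pseudocount of 1 (5.39%) and 3 with 64 (1.11%), and 1 with averaged probe sets (1.76%). LIMK1 and STX1A were close to background in the control clone, and STX1A stood at 0.76 without control replicate 2.

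**Figure D1:**
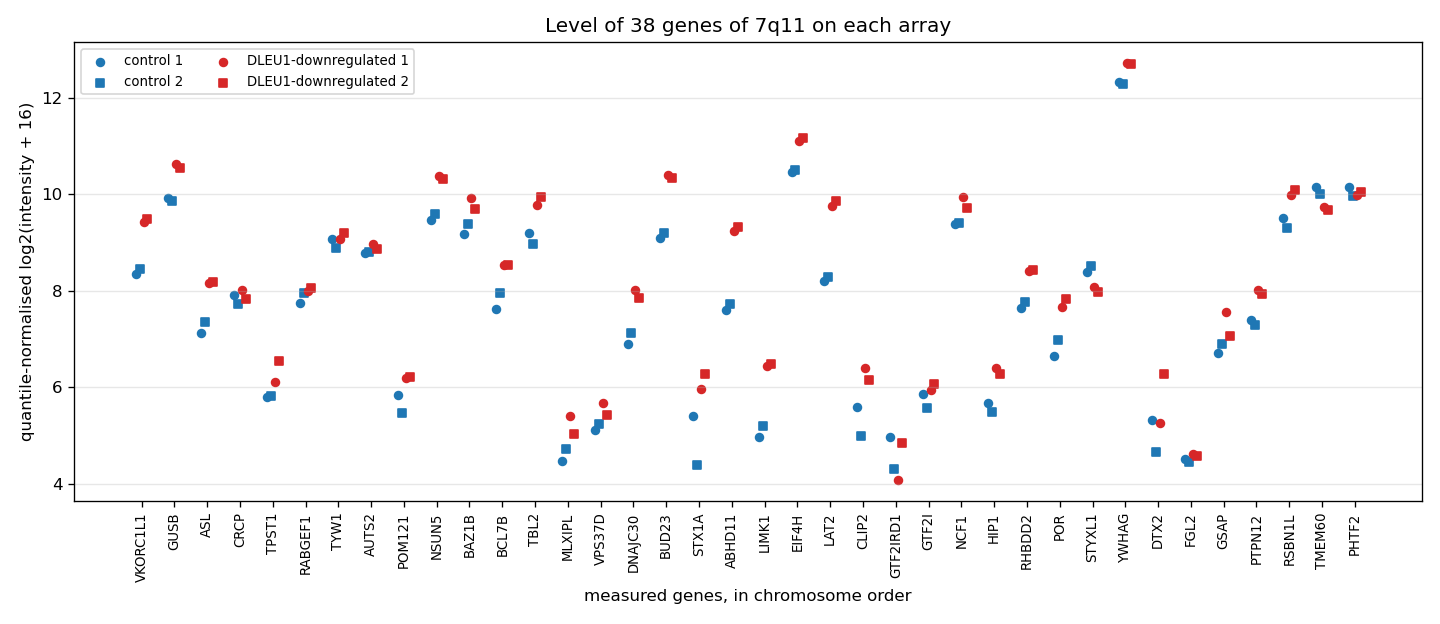
Level of each of the 38 measured genes on the 4 arrays, as quantile-normalised log2(intensity + 16), with genes in chromosome order. Blue marks are the 2 control arrays and red marks the 2 DLEU1-downregulated arrays. Red lies above blue for most genes, for example BUD23 (527.5 and 568.3 against 1333 and 1280) and YWHAG, and below blue for STYXL1 and TMEM60.

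The scaling set how many genes were called, and in which split. With the intensities as deposited, 24 of the 36 genes were called higher and limma called 0 lower (0 at an unadjusted p under 0.05), their median was 0.90, and the median of all genes tested was itself 0.19 (2701 called higher and 762 lower of 13284, or 20.3% and 5.74%). After centring each array on its median, 31 were called higher and limma again called 0 lower (0 unadjusted), with a median of 0.94 against 0.23 over all genes, of which 36.7% were called higher and 8.42% lower. Relative to all genes, the shift of the 7q11 genes was 0.66 after quantile normalization and 0.71 as deposited. Median centring moves all genes of an array by the same amount, so its 0.71 repeats the deposited value and is no further check. Chromosome 7 genes outside the interval also lay above all genes, with medians of 0.28 after quantile normalization and 0.49 as deposited.

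Of the 5 measured genes of RNA, ribosome and translation, 3 were called higher, beside 20.6% of all genes tested. BUD23, listed under its older name WBSCR22, codes for a methyltransferase that matures the RNA of the small ribosomal subunit. It read 527.5 and 568.3 in the control clone and 1333 and 1280 in the other clone, a log2 difference of 1.23 ± 0.07 (SE). NSUN5, which methylates the RNA of the large subunit, read 690.9 and 747.7 against 1313 and 1249, a difference of 0.82 ± 0.07. The probe sets of NSUN5 carry the suffix _x_at, which marks probes that may bind other transcripts, and its pseudogene NSUN5P1 is among the genes of the interval that were called higher. EIF4H, a helper of the helicase that opens messenger RNA for translation, read 1393 and 1433 against 2182 and 2271 (0.65 ± 0.05). For each of these 3 genes the difference between the clones exceeded both gaps within them, as it did for 60.7% of all genes tested. The other measured genes of this group were not called. TYW1, an enzyme that modifies a transfer RNA base, read 526.6 and 459.8 against 520.1 and 570.9, and CRCP, a subunit of RNA polymerase III, read 224.1 and 195.1 against 241.5 and 210.8. In both the arrays of the 2 clones overlapped.

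Of the 7 genes for metabolic and mitochondrial proteins, 6 were called higher. The share called higher was 42.7% for chromosome 7 genes outside the interval and 20.6% for all genes tested. ABHD11, a mitochondrial hydrolase, had a log2 difference of 1.63 ± 0.09, the highest of the list with the added 16 and all 4 arrays. STX1A was higher with a pseudocount of 1 (2.10, LIMK1 1.97, ABHD11 1.71), without control replicate 1 (1.74 against 1.57) and with averaged probe sets, and LAT2 equalled ABHD11 with 64 (1.43). The ABHD11 intensity was 176.4 and 194.7 in the control clone and 589.4 and 624.3 in the DLEU1-downregulated clone, 3.09-fold on the log2(intensity + 16) scale. DNAJC30, a mitochondrial chaperone that helps to renew complex I, read 103.5 and 124.1 against 244 and 213.5 (0.92 ± 0.13). VKORC1L1, the relative of the vitamin K reductase that warfarin blocks, read 308.5 and 330.8 against 668.5 and 703.6 (1.06 ± 0.08), and its second probe set was also called higher. In all 3 the difference between the clones exceeded both gaps within them, which held for 60.7% of all genes tested. GUSB, the lysosomal beta-glucuronidase that is often used as a reference gene in PCR, read 951 and 906.9 against 1557 and 1470 (0.69 ± 0.06). ASL, which releases arginine in the urea cycle, read 123.9 and 148.8 against 268.4 and 276.8. POR, which hands electrons to the cytochromes P450, read 84.21 and 110.3 against 187.4 and 211.6. TPST1, which adds sulfate to tyrosines of secreted proteins, was dimmer, at 39.25 and 40.37 against 52.63 and 77.55, and was not called.

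Among signalling and cytoskeletal genes, LAT2 stood out. LAT2, also known as NTAL, is a membrane adaptor that is phosphorylated after the B-cell receptor is engaged. Its intensity was 277.7 and 295.3 in the control clone and 849.6 and 906.1 in the DLEU1-downregulated clone, a log2 difference of 1.56 ± 0.08. A dim second probe set read 16.43 and 11.2 against 30.58 and 17.37 and was not called. LIMK1, the kinase that inactivates cofilin and so stabilises actin filaments, was close to background in the control clone. Its brightest probe set read 15.6 and 20.54 against 71.59 and 74.11 (1.39 ± 0.20), and a second one read 30.13 and 20.78 against 24.73 and 38.88, with the clones overlapping. CLIP2, which links microtubules to other structures, read 32 and 15.77 against 68.22 and 55.49 (0.99 ± 0.24), and was not called without DLEU1-downregulated replicate 1. NCF1, the cytosolic organiser of the phagocyte oxidase, read 648.9 and 661.6 against 971.2 and 823.4 (0.44 ± 0.09) with an _x_at probe set, and its near-identical pseudogenes cannot be told apart by it. PTPN12, a tyrosine phosphatase, read 153 and 139.2 against 242.1 and 228.3. YWHAG, a 14-3-3 protein and the brightest gene of the list, read 5123 and 4933 against 6682 and 6584, a small difference of 0.40 with an SE of 0.04. FGL2, a secreted fibrinogen-like protein, was too dim to be tested, at 5.986 to 8.657 over the 4 arrays.

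STYXL1, a catalytically inactive relative of the dual-specificity phosphatases, went the other way. It read 320.2 and 350.5 in the control and 252.8 and 235.2 in the DLEU1-downregulated clone, a log2 difference of -0.43 ± 0.10. Of its 5 tested probe sets, 4 were called lower. Among these 4, 3 carry the suffix _x_at, and the brightest does not. The log2 difference of STYXL1 was -0.12 with the intensities as deposited and -0.08 after median centring, and neither was called. TMEM60, a small membrane protein near the far end of the list, was the other gene called lower. It read 1111 and 1005 against 836.2 and 802.3 (-0.36 ± 0.07), a difference that was -0.00 as deposited and turned to 0.04 after median centring.

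Of the 7 tested genes for transcription and chromatin, 3 were called higher, and the median log2 difference of the 7 was 0.52. The 42.9% called higher was near the 42.7% of chromosome 7 genes outside the interval, against 20.6% of all genes tested. BAZ1B, a chromatin remodeller that pairs with the ATPase SMARCA5, read 561.2 and 656.8 against 951.3 and 812.2 (0.52 ± 0.10). BCL7B, a subunit of SWI/SNF remodelling complexes, read 180.7 and 231.1 against 353.1 and 352.7 (0.74 ± 0.12). RSBN1L read 710 and 611.9 against 1001 and 1075 (0.64 ± 0.08), with 3 of its 4 tested probe sets called higher. The remaining tested genes of the group were not called. AUTS2, which turns a Polycomb complex towards activation, read 424.8 and 431.1 against 481.4 and 452.2. MLXIPL, the glucose-responsive factor ChREBP, was near background throughout, at 6.186 and 10.3 against 26.6 and 16.94. PHTF2 read 1115 and 977.4 against 992.9 and 1039, so that the clones overlapped. GTF2I, the factor TFII-I that is tied to the cognitive profile of the syndrome, was measured by a dim probe set (42.34 and 31.88 against 45.37 and 51.27), because its other probe sets also name its pseudogenes. GTF2IRD1, a relative of GTF2I, was too dim to be tested, and its 4 values between 0.9247 and 15.3 overlapped between the clones.

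Of the 10 measured genes for membranes, traffic and ubiquitin, 4 were called higher and 1, TMEM60, lower. That is 40% and 10%, near the 42.7% and 9.67% of chromosome 7 genes outside the interval. Over all genes tested the share was 20.6% each way. TBL2, a WD-repeat protein of the endoplasmic reticulum, read 570.8 and 485.3 against 865 and 967 (0.78 ± 0.09). RHBDD2, a rhomboid-like membrane protein, read 185.4 and 200.2 against 323.4 and 326.8 (0.71 ± 0.10). HIP1, an adaptor of clathrin and actin in endocytosis, was dimmer at 34.79 and 28.62 against 67.9 and 61.15. STX1A, a syntaxin of synaptic vesicle fusion, read 26.1 and 5.013 against 46.68 and 61.59. The gap between its control arrays was 1.00 on the log2 scale, close to the difference of 1.23 between the clones, and the call was lost when control replicate 2 or either DLEU1-downregulated array was left out. HIP1 lost its call without either DLEU1-downregulated array. POM121, an anchor of the nuclear pore, read 41.52 and 28.12 against 57.03 and 58.17 and was not called. VPS37D, a subunit of the ESCRT-I sorting complex, read 18.49 and 21.76 against 34.99 and 27.02. GSAP, a regulator of gamma-secretase, read 88.21 and 102.4 against 172.6 and 118.8. RABGEF1, an activator of the endosomal GTPase RAB5, read 197.4 and 232.4 against 237.5 and 251. DTX2, a ubiquitin ligase of the Deltex family, read 24.01 and 9.08 against 22.36 and 61, with overlapping clones. Nearest to the threshold were HIP1 (log2 difference 0.76) and STX1A (1.23) on the called side, and GSAP (0.52) and POM121 (0.55) on the other.

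Several genes had more than one probe set. In all, 76 probe sets name a listed gene alone, 64 of them were tested, and 29 were called higher and 5 lower, against 17.0% and 16.7% of all probe sets tested. Of 17 genes with at least 2 tested probe sets, 12 had all of them on 1 side of 0. The exceptions were ABHD11, AUTS2, RABGEF1, STYXL1 and PHTF2. In ABHD11 a second probe set moved with the brightest (21.48 and 12.55 against 83.82 and 95.39), whereas another read 36.54 and 18.54 against 30.93 and 6.509. When all probe sets of a gene were averaged, 19 genes were called higher, beside 17.6% of all genes. DNAJC30, HIP1, LIMK1 and PTPN12 were lost and GSAP gained.

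**Figure D2:**
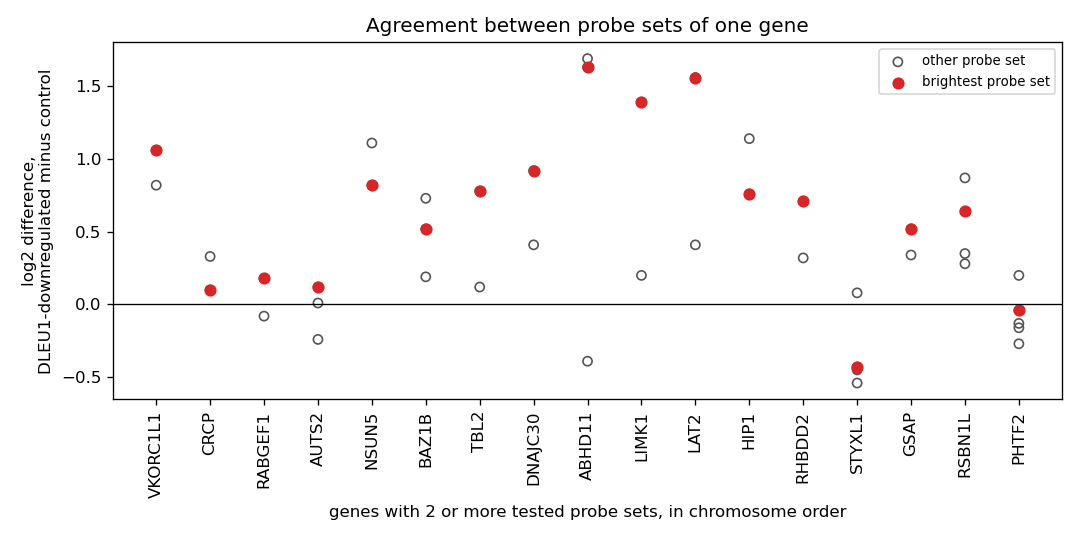
Log2 difference (DLEU1-downregulated minus control) of every tested probe set for the 17 listed genes that have at least 2, in chromosome order; the filled mark is the brightest probe set and open marks are the others. The ABHD11 probe sets span -0.39 to 1.69, and those of STYXL1 lie at -0.54 to 0.08.

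Position along the chromosome was then compared with the differences, with the gene order taken from RefSeq. Among listed genes before NSUN5, 3 of 9 tested were called higher, namely VKORC1L1, GUSB and ASL at the near end. From NSUN5 to GTF2I, the part usually deleted in Williams-Beuren syndrome, 12 of 15 were called higher with a median of 0.82. After GTF2I, 7 of 12 were called higher and 2 lower, with a median of 0.58. Over chromosome 7 outside the interval, 42.7% of tested genes were called higher and 9.67% lower, and over all genes 20.6% each way. Within the interval, the longest run of tested genes with a difference above 0 went from POM121 to TMEM120A and held 35 genes, 20 of them listed and 26 called higher. The run includes copied genes, such as NSUN5P1 and POM121C, whose probes may read more than one copy. Run lengths elsewhere on the chromosome were not measured. The differences between these stretches were not tested.

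Genes of the interval that are not on the list were read in the same way. Of 44 such genes with a probe set, 30 were tested, 13 were called higher and 2 lower, and their median was 0.37. These shares, 43.3% and 6.67%, were near those of chromosome 7 outside the interval, 42.7% and 9.67%. They were not even along the interval. Before NSUN5, 2 of 10 tested were called higher, with a median of -0.1. From NSUN5 to GTF2I it was 1 of 2, and after GTF2I 10 of 18, with a median of 0.49. The difference between these stretches was not tested. Over all genes tested the share was 20.6% in each direction. RFC2, a subunit of the clamp loader of DNA replication that lies inside the Williams-Beuren block, read 226.2 and 212.4 against 610.5 and 597.2, a log2 difference of 1.40 ± 0.09 (limma adjusted p = 7.75e-06). POM121C, a copy of POM121 on the other side of the Williams-Beuren block, read 434.1 and 373 against 1005 and 930 (1.23 ± 0.09). MDH2, the mitochondrial malate dehydrogenase, read 6602 and 6009 against 8706 and 9067 (0.50 ± 0.05). The 2 genes called lower, LINC03011 and CT66, both lie before NSUN5. LINC03011 read 222.4 and 337.2 against 149.8 and 136.3, and CT66 read 24.01 and 24.26 against 4.265 and 2.223, close to background. Classical genes of the deleted block with tissue-specific roles, the elastin gene ELN, the claudins CLDN3 and CLDN4, the Wnt receptor FZD9, FKBP6 and TRIM50, were too dim to be tested, with 14.3 as the highest value on any array. Several of the called genes, such as PMS2P3, PMS2P5, PMS2P8, NSUN5P1 and STAG3L3, are copies of other genes, and their probe sets may read those too.

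The nearest genes outside the interval were mostly not called higher. Of the 10 measured genes before VKORC1L1, mostly zinc finger genes, 9 were tested and 1, ZNF680, was called higher, while ZNF273 and ZNF92 were called lower. ZNF273 read 487.4 and 484 against 234.4 and 264.4, a difference of -0.92 that was -0.60 as deposited and not called there. ZNF92 had a difference of -0.38, which was -0.02 as deposited and 0.02 after median centring, where it was not called. Of the 10 after PHTF2, 5 were tested and limma called 0 (0 at an unadjusted p under 0.05), with no intensity above 57.95.

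**Figure D3:**
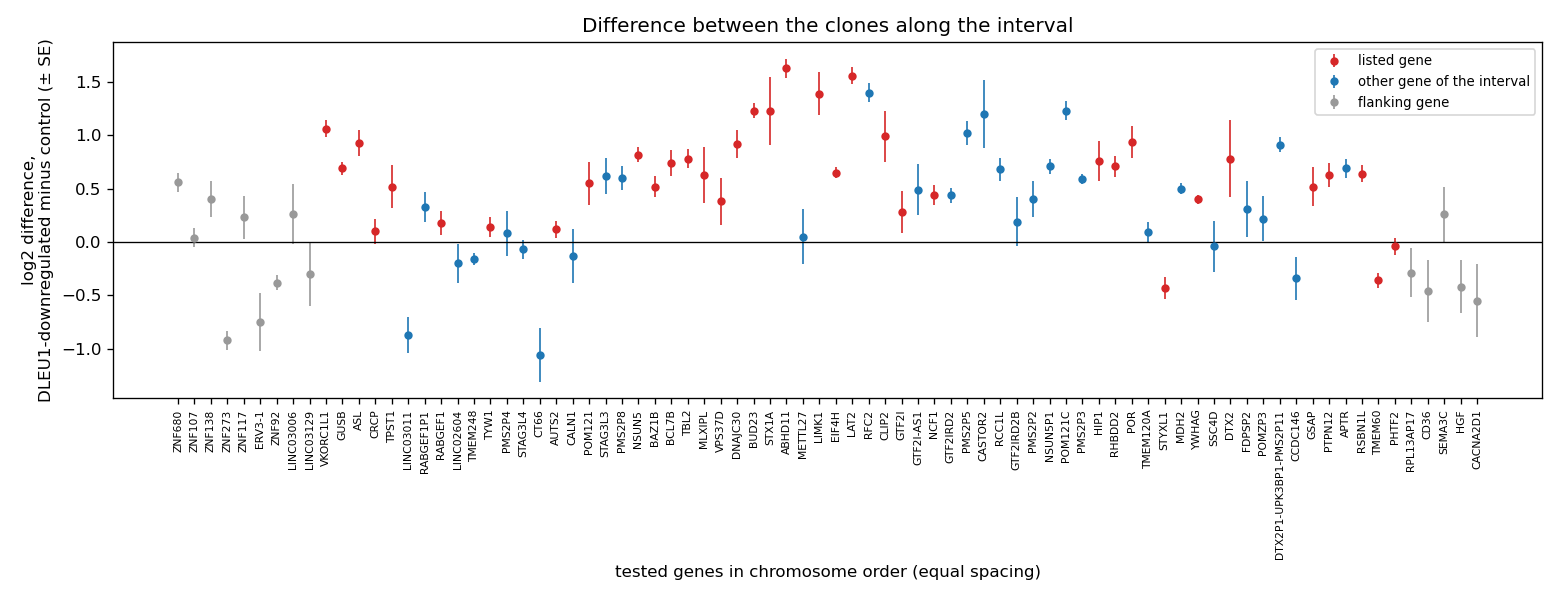
Log2 difference (DLEU1-downregulated minus control, with SE) of every tested gene from ZNF680 to CACNA2D1, at equal spacing in chromosome order; red marks are listed genes, blue marks other genes of the interval and grey marks the flanking genes. Values lie above 0 for 35 genes in a row from POM121 to TMEM120A and reach 1.63 at ABHD11.

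The rest of chromosome 7 was also shifted. Of 569 tested genes of this chromosome outside the interval, 42.7% were called higher and 9.67% lower, with a median of 0.28, whereas on the other chromosomes 19.5% and 21.2% of 12644 genes were called and the median was -0.02. With the intensities as deposited, 43.8% of the chromosome 7 genes outside the interval were called higher and their median was 0.49. The 635 tested genes of the chromosome were cut into 25 consecutive blocks of 25 genes, a cut made after the values were seen. The block medians ran from -0.14 to 0.60, and 23 of 25 lay above 0. The block from LINC02604 to LAT2, with 16 listed genes, had the highest median (0.60), with 52% of its genes called higher. Its 9 other genes had a median of -0.07. The next block, from RFC2 to POMZP3, had a median of 0.50 and 60% of its genes called higher, and its 16 genes that are not listed had a median of 0.49. Of the 21 blocks without a listed gene, 2 reached that share, those from EIF3B to RAC1 (68%) and from CDK5 to RNF32 (60%). Their medians, 0.49 and 0.50, were close to that of the block from RFC2 to POMZP3. Whether the listed genes differ from the rest of the chromosome was not tested. Copy number was not measured here, and the part that it or DLEU1 plays in these differences was not tested.

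**Figure D4:**
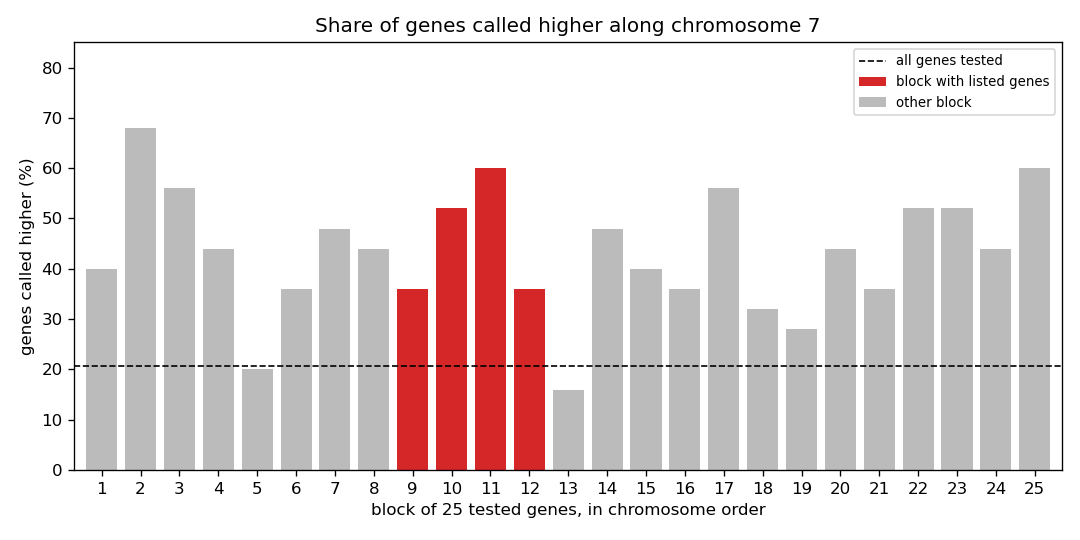
Share of tested genes called higher in each of 25 consecutive blocks of 25 genes along chromosome 7; red bars are the 4 blocks that hold listed genes, grey bars the others, and the dashed line marks the 20.6% of all genes tested. The red bars lie between 36% and 60%, within the range of the grey bars (16% to 68%).

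Genes that start close together in opposite directions were not all called in the same direction after quantile normalization, and the calls that differed depended on that scaling. DNAJC30 and BUD23 start 144 bases apart in the first window shown above, and both were called higher (0.92 and 1.23). RSBN1L and the non-coding gene APTR start 194 bases apart, and were also both called higher (0.64 and 0.69). STYXL1 and MDH2 start 106 bases apart, and STYXL1 was called lower (-0.43) and MDH2 higher (0.50). As deposited STYXL1 stood at -0.12 and was not called, while MDH2 was at 0.77 and called higher. After median centring STYXL1 stood at -0.08, not called, and MDH2 at 0.82, called higher. TMEM60 and PHTF2 start 339 bases apart, and TMEM60 was called lower (-0.36) while PHTF2 was not called (-0.04). As deposited TMEM60 stood at -0.00 and PHTF2 at 0.32, and neither was called. After median centring TMEM60 stood at 0.04, not called, and PHTF2 at 0.36, called higher.

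The start regions were searched for 5 short motifs on both strands, in windows of 300 bases. Of the 38 genes, 33 had a RefSeq window, and the first in coordinate order was taken where a gene has several. The GC box GGGCGG was present in 27 of them (81.8%), in 64.9% of windows of all genes tested and in 43.8% of all windows. The CCAAT box was present in 13 (39.4%, against 36.8% of genes tested), and the ETS motif CCGGAAG in 6 (18.2%, against 18.1%). The E-box CACGTG was found in EIF4H alone, and the TATA box TATAAA in none of these windows, against 9.53% and 6.94% of genes tested. The median number of CpG pairs was 30 per window, compared with 25 over genes tested. Each match is a description of the letters in the window.

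Partners of the listed proteins that are encoded elsewhere in the genome were called in both directions. Of 70 tested partners, 21 were called higher and 19 lower, 30% and 27.1%, with a median of 0.03, beside 20.6% in each direction over all genes. With the intensities as deposited 19 were called higher and 4 lower (all genes 20.3% and 5.74%), and after median centring 39 and 5 (all genes 36.7% and 8.42%). The 21 fell to 11 with averaged probe sets and to 7 without an eBayes trend, where 17.6% and 12.3% of all genes were called higher. The number also fell when either DLEU1-downregulated array was left out, as did the share over all genes. The adjusted p-values of partners below are from limma.

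Around LAT2, the B-cell receptor kinases LYN and SYK and the adaptor GRB2 had log2 differences of -0.47 (limma adjusted p = 0.00193), -0.40 (0.00101) and -0.31 (0.00423) after quantile normalization. As deposited these were -0.10, -0.03 and 0.04, none was called, and after median centring SYK stood at 0.01 and GRB2 at 0.08. For ESCRT-I, to which VPS37D belongs, the core subunit TSG101 was called lower on all 3 scales, with -1.12 after quantile normalization (limma adjusted p = 3.97e-06) and -0.77 as deposited. VPS28 (-0.47) and VPS37A (-0.53) were called lower after quantile normalization but not on the other scales, where they stood at -0.15 and -0.25 as deposited, and VPS37C (-0.12) was not called. VPS37B, another form of the VPS37 subunit, read 2.223 and 1.998, which is background, against 27.87 and 30.36, and no fold is given for it. PTPN22, a lymphocyte phosphatase related to PTPN12, was also called lower on all 3 scales, at -1.31 (limma adjusted p = 8.86e-06) and -0.96 as deposited.

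RNA polymerase III, of which CRCP is a subunit, had 7 other tested subunits, of which 1 was called higher and 2 lower, against 1 and 1 as deposited and 5 and 1 after median centring. POLR3G was higher by 1.28 (limma adjusted p = 8.03e-06) and POLR3D stood at -0.96 (limma adjusted p = 9.07e-04), and both calls held as deposited and after median centring. EIF6, the factor that SBDS helps to release from new ribosomes, was called higher by 0.50 (limma adjusted p = 3.31e-04), whereas EFL1, the GTPase of the same step, had a difference of -0.13 (limma adjusted p = 0.278). EFL1 stood at 0.20 as deposited and 0.24 after median centring, and was called on neither scale. TRMT112, which stabilises BUD23, had a difference of -0.10 (limma adjusted p = 0.244). As deposited it stood at 0.27, not called, and after median centring at 0.31, called higher. SMARCA5, the ATPase that BAZ1B pairs with, was called higher by 0.35 (limma adjusted p = 0.00526). The SWI/SNF subunits SMARCA4, SMARCD1 and BCL7C, which share complexes with BCL7B, were called higher by 0.41, 0.38 and 0.43, whereas BCL7A at 0.02 was not called (limma adjusted p = 0.927). BCL7A stood at 0.35 as deposited, not called, and at 0.40 after median centring, called higher. Of the oxidase subunits that work with NCF1, CYBA was called higher by 0.27 (limma adjusted p = 0.00311), NCF4 stood lower at -0.84 (0.00408), and CYBB at -0.13 was not called. CYBB stood at 0.23 as deposited and 0.27 after median centring, and was called on neither scale.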

How the data were processed

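Per the submitters' processing notes, the authors made the deposited signal intensities with MAS5, a summary made array by array; for its version and target, nothing is stated in the labels or headers. The table held 54613 probe sets and 62 control probe sets, and its trimmed means show no common target. Each intensity was turned into log2(intensity + 16) and quantile-normalised over the 4 arrays; printed intensities are these values turned back. Probe sets with a mean under the 40th percentile were not tested, which left 32768. Group was the only term of the fit, made by lmFit and a trended eBayes (limma 3.58.1, run under R 4.3.3), and p-values were adjusted by Benjamini-Hochberg over all probe sets tested and a threshold of 0.05. The fit was tested on simulated data. Genes were named from the platform annotation of 2016 (41091 probe sets with 1 symbol, 1801 with several, 11721 with none), and 19735 of 19775 genes matched RefSeq (GRCh38.p14) by identifier, which gave their order. The files name no genome build. The genes, partner and marker lists were chosen with earlier results of these data known. By rule the text could name every listed gene, any tested gene of the interval, the 10 measured genes on each side and 76 partners (71 measured); partners and interval genes shown in full were picked from these after their values were seen. The alternatives were 2 other scalings, 2 pseudocounts, 2 filters, eBayes without a trend, the replicate number as a block, dropping 1 array at a time, dropping _x_at probe sets and averaging probe sets.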

Additional observations from a re-analysis of the deposited data

How the results depend on the processing

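Of the 22 genes called higher, 13 were called higher under all 14 alternatives, among them BUD23, ABHD11, LAT2, VKORC1L1, GUSB and EIF4H. Under the alternatives that kept all 4 arrays, the count called higher stayed within 1.5 times of 22. Over these, the share of all genes called higher ran from 11.7% without a filter to 36.7% after median centring. The count called lower, 2, was 0 as deposited, after median centring and without an eBayes trend (limma, with 0, 0 and 2 at an unadjusted p under 0.05), and 1 to 2 with 1 array left out. TMEM60 turned to 0.04 after median centring. The median of 0.65 moved to 0.90 as deposited, 0.94 after median centring, 0.72 with a pseudocount of 1, 0.50 with 64 and 0.53 with averaged probe sets, and it was 0.65 to 0.68 with 1 array left out.

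Among interval genes outside the list, 1 was called lower instead of 2 as deposited, with a pseudocount of 1, with the filter at the 60th percentile and without a trend, and 1 to 2 with 1 array left out. Of the partners, 39 were called higher and 5 lower after median centring, 4 lower as deposited, 7 higher and 9 lower without a trend, and 11 higher with averaged probe sets. Over all genes, 12.3% were called higher and 12.8% lower without a trend, and 17.6% higher with averaged probe sets. Leaving out 1 array gave 10 to 18 partners called higher; it was 13 without replicate 1 and 10 without replicate 2 of the DLEU1-downregulated clone. The DLEU1 difference ranged from -1.43 to -1.33 with 1 array left out, and its call held under every alternative (adjusted p up to 0.0125).

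The replicate numbers pair no cultures that the labels name. With the replicate block 23 listed genes were called higher and 2 lower, beside 20.7% and 20.5% of all genes. Arrays of the same number had deviations that correlated at -0.014. The number of arrays limits the precision, and for genes near background, such as LIMK1, STX1A and CLIP2 in the control clone, the size of the difference depends on the added 16.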
